A study of Mus musculus with 78 samples.

Results

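MED23 is a subunit of Mediator, the large complex that bridges transcription factors bound at enhancers and promoters with RNA polymerase II (RNAPII). It lies in the tail of Mediator and is known as the subunit through which ELK1, a transcription factor acted on by ERK kinase, recruits the complex. In mouse embryonic stem cells (mESCs), Mediator is dense at super-enhancers (SEs), the clusters of enhancers next to genes of cell identity. TRIM28 is the corepressor that KRAB zinc-finger proteins bring to endogenous retroviruses (ERVs), where it maintains H3K9me3, a histone mark of repressed chromatin.

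MED23 ChIP–seq was available from 4 libraries of V6.5 mESCs, 2 treated with DMSO and 2 with dTAG-13, out of 78 samples in the series. All 4 came from the same engineered line, in which both groups carry TRIM28 fused to FKBP F36V, so that dTAG-13 leads to its degradation. The treated cells received 500 nM dTAG-13 and the control cells 0.05% DMSO, each for 24 h. The line was derived from picked colonies and was kept on feeder fibroblasts, which were depleted before the experiment, in serum and LIF. Nothing in the labels says whether the replicates are separate cultures, so p-values measure the spread between these libraries.

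The members of this account are MED23 sites. The 10000 peaks with the highest fold enrichment (the peak caller's ratio of ChIP signal over background) were taken from each library, and overlapping peaks were merged into 15657 sites. A site was called a gene-start site when a summit lay within 1000 bp of a gene's start, which gave 4899 gene-start sites and 10758 distal sites. Equal numbers were used because the deposited peaks were 63045 and 58925 in DMSO against 15335 and 14551 after dTAG-13. The peak files hold no read counts, so the depth of these libraries is unknown. The values at the edge of the selection were 10.3 and 9.95 in DMSO against 4.37 and 4.44 after dTAG-13, and the first peak left out of each library had nearly the same value as the last one kept.

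The cells matched their label in RNA-seq of the same line. The DMSO controls of RNA-seq are labelled as the start of a time course, whereas those of MED23 ChIP are listed with 24 h of treatment. Pou5f1 stood at 1162 ± 20.3 TPM (SD, n = 3) in DMSO and Nanog at 136 ± 4.84, whereas the fibroblast genes Col1a1, Col3a1 and Lum stood at 8.16, 0.539 and 0 TPM. Trim28 mRNA was 624 ± 2.28 TPM in DMSO and 372 ± 9.18 after 24 h, which does not report on the protein that dTAG-13 removes. Med23 mRNA itself was 25.0 ± 0.257 TPM in DMSO and 29.7 ± 0.589 after 24 h (limma, log2 difference 0.24 ± 0.04 SE, adjusted p = 0.00019).

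The sequences below show what kinds of DNA the results turn on. They are the 300 bases around the mean summit of 6 sites, read from GRCm38 (the assembly of mm10) on the plus strand. The first set shows sites whose MED23 fell, with CG pairs in capitals at the start of Klf4 (chr4:55532473-55532772, upstream of the first exon) and searched motifs in capitals at the start of Jund (chr8:70698636-70698935, upstream of the first exon) and at the distal site 90.8 kb upstream of Rybp (chr6:100378150-100378449, intergenic).
Klf4 start: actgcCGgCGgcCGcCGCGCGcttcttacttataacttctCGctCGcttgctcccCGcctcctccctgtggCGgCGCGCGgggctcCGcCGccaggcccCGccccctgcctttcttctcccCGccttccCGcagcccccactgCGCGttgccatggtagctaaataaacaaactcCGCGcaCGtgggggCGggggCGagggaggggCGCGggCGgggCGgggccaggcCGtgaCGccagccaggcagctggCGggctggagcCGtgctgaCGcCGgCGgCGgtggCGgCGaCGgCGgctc
Jund start: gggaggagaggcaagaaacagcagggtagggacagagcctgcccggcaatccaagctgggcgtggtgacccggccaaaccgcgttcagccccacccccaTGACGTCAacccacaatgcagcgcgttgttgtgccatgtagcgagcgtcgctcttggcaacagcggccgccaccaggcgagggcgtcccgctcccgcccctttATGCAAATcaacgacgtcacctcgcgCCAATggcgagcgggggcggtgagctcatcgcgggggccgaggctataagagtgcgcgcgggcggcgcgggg
Rybp distal: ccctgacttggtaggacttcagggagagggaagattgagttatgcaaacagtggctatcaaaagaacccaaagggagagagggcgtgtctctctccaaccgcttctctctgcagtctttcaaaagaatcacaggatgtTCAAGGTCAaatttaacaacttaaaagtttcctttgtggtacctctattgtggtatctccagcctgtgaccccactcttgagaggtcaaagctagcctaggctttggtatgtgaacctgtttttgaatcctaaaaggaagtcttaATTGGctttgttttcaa
The Jund start holds a CRE (TGACGTCA, the letters read by CREB family factors), an octamer (ATGCAAAT, read by POU factors) and CCAAT. The Rybp site holds TCAAGGTCA, the letters of the ESRRB motif, and CCAAT on the minus strand.

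The second set shows sites inside ERVs whose MED23 rose, with capitals for every 30-base word that at least 10 other site windows also hold, on either strand. They lie in the MMETn upstream of Cthrc1 (chr15:39069343-39069642), in an MMETn near Tdpoz4 (chr3:93756872-93757171) and in an MMERVK near Aasdhppt (chr9:4105194-4105493), all intergenic.
MMETn near Cthrc1: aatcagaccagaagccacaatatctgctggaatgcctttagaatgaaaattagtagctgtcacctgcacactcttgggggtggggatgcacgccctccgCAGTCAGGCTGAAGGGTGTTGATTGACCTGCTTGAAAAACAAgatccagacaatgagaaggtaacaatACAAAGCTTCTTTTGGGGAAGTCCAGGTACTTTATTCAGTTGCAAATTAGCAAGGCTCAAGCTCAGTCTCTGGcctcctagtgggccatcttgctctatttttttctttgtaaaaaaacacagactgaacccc
MMETn near Tdpoz4: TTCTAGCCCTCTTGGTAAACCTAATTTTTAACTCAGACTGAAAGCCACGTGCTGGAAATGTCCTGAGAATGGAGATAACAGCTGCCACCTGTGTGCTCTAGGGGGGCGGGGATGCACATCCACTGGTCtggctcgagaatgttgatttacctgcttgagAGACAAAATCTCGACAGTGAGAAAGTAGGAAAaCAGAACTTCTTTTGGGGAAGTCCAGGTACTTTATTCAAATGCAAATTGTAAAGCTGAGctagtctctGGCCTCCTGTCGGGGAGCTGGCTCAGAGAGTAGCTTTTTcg
MMERVK near Aasdhppt: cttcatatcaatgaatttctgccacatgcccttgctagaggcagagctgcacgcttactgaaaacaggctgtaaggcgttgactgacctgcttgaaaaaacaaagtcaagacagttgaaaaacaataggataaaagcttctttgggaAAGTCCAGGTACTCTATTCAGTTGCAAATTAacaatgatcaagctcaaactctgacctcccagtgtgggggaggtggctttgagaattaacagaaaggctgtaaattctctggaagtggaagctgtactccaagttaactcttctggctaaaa
The longest word common to these 3 windows was AAGTCCAGGTACT, of 13 bases. It was found in 266 of the 15657 site windows (1.70%), and in 1 of the 4899 windows at gene starts.

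The strongest MED23 peaks of TRIM28-degraded mESCs lay less often at gene starts and SEs and more often in ERVs than those of control cells. Gene starts took 36.6% and 36.9% of the 10000 peaks in the DMSO libraries and 20.6% and 19.5% in the dTAG-13 libraries. The difference of the means was -16.7 percentage points, and the groups did not overlap. Starts of active genes (at least 1 TPM in DMSO) with such a peak numbered 3631 and 3629 of 15702 in DMSO against 1827 and 1697 after dTAG-13. Of the 231 SEs on the study's list, 207 and 208 held a peak in DMSO against 173 and 171 after dTAG-13.

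ERVs moved the other way. Of 780 full-length MMERVKs, 33 and 32 overlapped one of the strongest peaks in DMSO against 150 and 152 after dTAG-13, a 4.65-fold increase of the mean. Of 445 full-length MMETns, 66 and 62 were overlapped in DMSO against 220 and 220 after dTAG-13, a 3.44-fold increase. Both families are ERVK elements that TRIM28 is known to silence. For each of these 5 measures the groups did not overlap, and the exact two-sided permutation test gave p = 0.333, the smallest value that 2 libraries against 2 allow.

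The width and height of the peaks moved with these counts. The peaks used were narrower after dTAG-13, with a median width of 428 and 378 bp against 1168 and 1211 bp in DMSO, and covered 5.51 and 4.86 Mb against 14.4 and 15.0 Mb. Their fold enrichment was also lower, with medians of 6.30 and 6.39 against 15.0 and 14.6. With all deposited peaks, gene starts took 25.5% and 25.9% of peaks in DMSO against 30.0% and 28.7% after dTAG-13, and MMERVKs with a peak numbered 168 and 168 against 168 and 167 after dTAG-13. MMETns with a deposited peak numbered 235 and 237 in DMSO against 253 and 242 after dTAG-13.

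**Figure D1:**
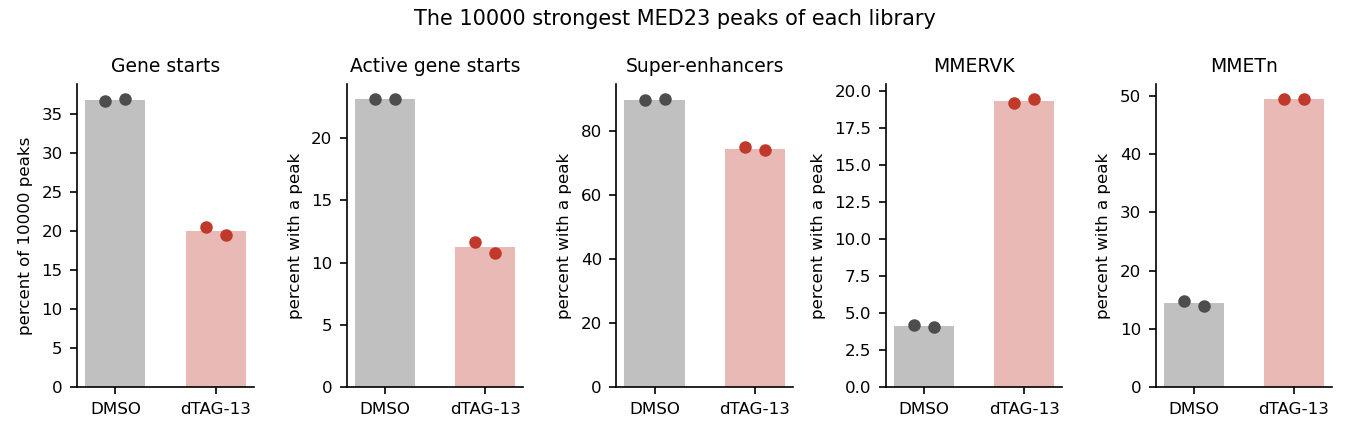
Share of the 10000 strongest MED23 peaks at gene starts, and shares of active gene starts, SEs, MMERVKs and MMETns that hold such a peak (percent, y axes), in DMSO and dTAG-13 libraries. Points are libraries and bars are means of 2. The dTAG-13 points lie below the DMSO points in the first 3 panels (for SEs 74.9% and 74.0% against 89.6% and 90.0%) and above them in the ERV panels (for MMETns 49.4% against 14.8% and 13.9%).

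Sites were next compared one by one. A site's value was the highest fold enrichment of the deposited peaks that overlapped it, and 10552 of the 15657 sites had a peak in all 4 libraries and were tested. Their median fell from 3.72 and 3.69 on the log2 scale in DMSO to 2.55 and 2.57 after dTAG-13, a shift of -1.14. MED23 ChIP had no spike-in, so a change of the overall level cannot be told apart from a change of the enrichment in the immunoprecipitation. Each library was therefore centred on its median, and the differences that follow are relative to the median site unless values are called deposited. Libraries of one group resembled each other (Pearson's r across sites 0.957 for DMSO and 0.949 for dTAG-13), while pairs across groups had r between 0.461 and 0.474.

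By limma with Benjamini-Hochberg adjustment, 3893 sites (36.9%) rose and 3040 (28.8%) fell relative to the median site. The sites were chosen by the same values that were tested, and a site could enter through the libraries of a single group. Sites whose groups did not overlap and that differed at least 1.5-fold made up 30.1% in the upward and 21.8% in the downward direction. Of the sites that were not tested, 2770 had a peak in both DMSO libraries and in neither dTAG-13 library, and 365 had the reverse. The former had median fold enrichments of 11.5 and 11.1 in DMSO, and the latter 5.56 and 5.60 after dTAG-13. Of the remaining sites, 1600 missed a peak in 1 dTAG-13 library, 215 missed one in 1 DMSO library and 155 had another pattern.

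Gene-start sites leaned downward. Of 3045 tested, 1499 fell (49.2%) and 482 rose (15.8%), with a median difference of -0.39. A further 1321 gene-start sites had a peak in both DMSO libraries and neither dTAG-13 library, and 9 had the reverse. Their G+C content moved with this. Gene-start sites that fell had a median of 65.3% G+C and those that rose 55.7%. In the bin of 65% G+C and over, distal sites outside SEs had a median difference of -0.62 (n = 264), beside -0.55 for gene-start sites (n = 1323). When each library was centred within 20 bins of G+C content, a setting chosen after the data were seen, 907 gene-start sites fell and 803 rose, with a median of -0.04. The part of G+C content in the fall at gene starts was not tested further.

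**Figure D2:**
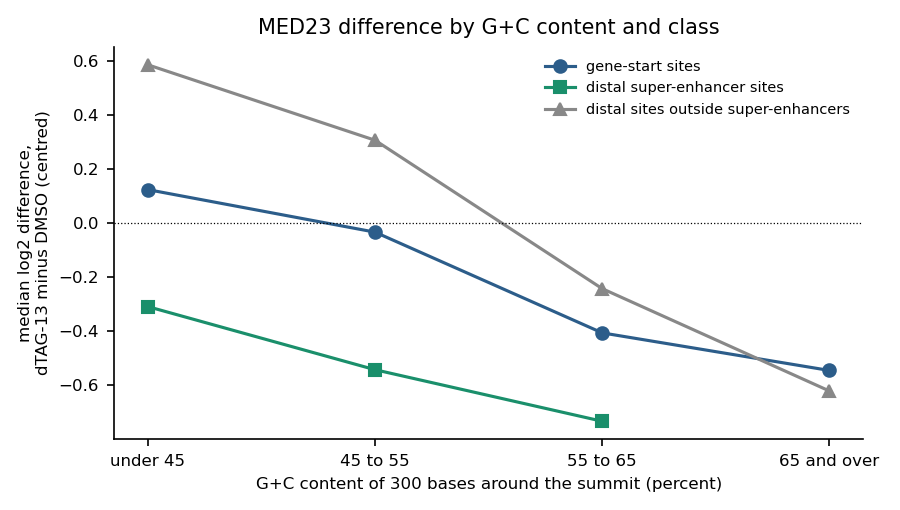
Median log2 difference of MED23 fold enrichment, dTAG-13 minus DMSO (y axis, each library centred on its median), in 4 bins of G+C content (x axis, percent), for gene-start sites, distal SE sites and other distal sites. Bins under 20 sites are not drawn. All 3 lines fall with G+C content, and the SE line lies below the others in each bin drawn, at -0.54 against 0.31 for other distal sites at 45 to 55%.

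SE sites fell more often than they rose. Of 280 SE sites tested, 155 fell and 28 rose, with a median difference of -0.51, and 64 more had a peak in both DMSO libraries and neither dTAG-13 library. Of all tested sites, 28.8% fell and 36.9% rose. With centring by G+C content, 178 SE sites fell and 27 rose, with a median of -0.64. Of 189 SEs with a deposited peak in all 4 libraries, 138 had both dTAG-13 values below both DMSO values after centring, and 22 had both above. This SE count sets no limit on fold. With at least 1.5-fold required, groups apart made up 21.8% of all tested sites downward and 30.1% upward. The largest deposited value in the data lay beside Lefty1, which encodes an inhibitor of Nodal signalling (chr1:180921818-180926015, in an SE). It was 320 and 295 in DMSO against 61.3 and 60.8 after dTAG-13, a centred difference of -1.19 ± 0.08 (SE; limma, adjusted p = 2.0e-07).

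The SEs next to pluripotency genes differed in size of change. The strongest site in the SE nearest to Sall1, a zinc-finger gene of the stem cell network, had 103 and 91.9 in DMSO against 9.48 and 9.87 after dTAG-13 (chr8:89002615-89007736, 40.5 kb from the gene start). That of Klf4, a pluripotency factor, had 89.9 and 94.8 against 15.1 and 15.4 (chr4:55474050-55478077, 56.9 kb from the gene start). The centred log2 differences were -2.19 and -1.46 (SE 0.11 and 0.10; limma, adjusted p = 3.0e-08 and 4.0e-07).

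The Mycn SE, next to a MYC family gene, had 41.4 and 50.8 in DMSO against 8.36 and 10.7 after dTAG-13 and fell by 1.14 ± 0.15. The SE of the miR-290 cluster, the major microRNA locus of mESCs, had 87.2 and 94.8 against 21.04 and 18.5 and fell by 1.06 ± 0.11. The strongest site at Pou5f1, which encodes OCT4, had 30.7 and 31.6 against 9.09 and 9.68 and fell by 0.59 ± 0.13. In limma these had adjusted p = 4.1e-05, 6.6e-06 and 0.0015.

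At the SEs of Sox2, Nanog and Fgf4 the change did not pass the test relative to the median site. The Sox2 SE site had 35.7 and 35.9 in DMSO against 13.1 and 15.4 after dTAG-13, a centred difference of -0.20 ± 0.13 (limma, adjusted p = 0.18), but -0.60 when centred by G+C content (adjusted p = 0.00095). The Nanog SE site had 24.9 and 20.7 against 8.65 and 7.79, a difference of -0.33 ± 0.15 (adjusted p = 0.069). The Fgf4 SE site had 13.6 and 11.5 against 3.86 and 6.02, a difference of -0.24 ± 0.21 (adjusted p = 0.33). As deposited, with no centring, the differences at the Sox2 and Nanog sites were -1.34 and -1.47. The SE nearest to Esrrb, a nuclear receptor of the same network, had 18.5 and 18.1 in DMSO at its strongest site, with 3.12 in 1 dTAG-13 library and no peak in the other. Elsewhere in this SE both dTAG-13 libraries had a deposited peak. The highest values in the whole SE were 4.32 and 5.15 after dTAG-13, a centred difference of -0.81 from DMSO.

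Of the 10 SEs with the highest summed fold enrichment in DMSO, 9 had both dTAG-13 values below both DMSO values after centring. Beside those of Lefty1 and miR-290, these lay nearest to Gm4824, Klf2, Spen, Mcl1, Tbx3, Esrrb and Mkrn1, with centred differences between -0.54 at Mcl1 and -2.12 at Mkrn1. The exception was a short SE of 870 bp 3.69 kb from Lefty2, with 142 and 137 in DMSO against 67.8 and 65.0 after dTAG-13, a difference of 0.07. These 10 SEs were picked by their DMSO values, which favours a fall, so their count is a description and not a test. Among all 189 SEs with a deposited peak in all 4 libraries, 138 had both dTAG-13 values below both DMSO values.

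ERV sites rose relative to the median site. Of 119 MMERVK sites tested, 102 rose and 4 fell, with a median difference of 1.30, and of 189 MMETn sites 156 rose and 6 fell, with a median of 1.11. By deposited values their median was nearly level. In limma on deposited values 49 MMERVK sites rose and 31 fell, while 52 MMETn sites rose and 60 fell. MMERVK sites had medians of 7.36 and 6.66 in DMSO against 7.97 and 8.18 after dTAG-13, and MMETn sites 8.12 and 7.28 against 7.43 and 7.27. Peaks entered the selection at 10.3 and 9.95 in DMSO against 4.37 and 4.44 after dTAG-13, so the DMSO medians of both families lay below the DMSO edge. Entry through the dTAG-13 libraries alone favoured a rise on the centred scale. The counts at ERV sites are therefore a description and not a test. With centring by G+C content, 90 MMERVK and 122 MMETn sites rose and 8 and 12 fell. Reads in such elements can fit several copies, and the assignment of such reads is not given in the sources used here.

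**Figure D3:**
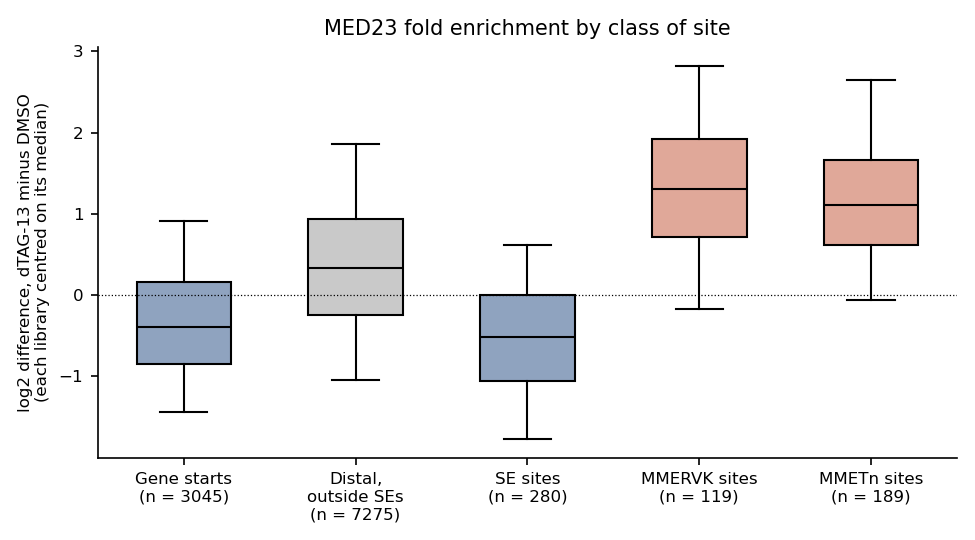
Log2 difference of MED23 fold enrichment, dTAG-13 minus DMSO (y axis, each library centred on its median), by class of site. Boxes span the quartiles with the median, whiskers the 5th to 95th percentile, and n is the number of sites tested. The medians are -0.39 at gene starts, 0.33 at distal sites outside SEs, -0.51 at SE sites, 1.30 at MMERVK and 1.11 at MMETn sites.

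The MMERVKs that gained a strong peak were mostly of 2 subfamilies. Among all MMERVKs, 111 elements held one of the strongest peaks in both dTAG-13 and neither DMSO library, and 4 had the reverse. Of the 111, 59 belonged to MMERVK9C (of 196 elements) and 47 to MMERVK9E (of 175), 5 to MMERVK10C (of 349) and none to MMERVK10D3 (of 60). Among MMETns, 136 elements gained such a peak and 1 lost it. No deposited peak lay in either DMSO library at 25 of the 111 MMERVKs and 29 of the 136 MMETns that gained one. The strongest peaks began at 10.3 and 9.95 in DMSO against 4.37 and 4.44 after dTAG-13. An element could therefore gain such a peak without a higher deposited value. A deposited peak of any strength lay in 189 MMERVKs in DMSO against 175 after dTAG-13, and in 257 MMETns against 265.

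The largest rise was at an MMERVK9C in an intron of Rdh16 (chr10:127817210-127819358, 79.0 kb from the start of Zbtb39). It had 4.37 and 3.77 in DMSO against 36.4 and 44.7 after dTAG-13, a centred difference of 4.45 ± 0.15 (limma, adjusted p = 1.2e-08). An MMETn 39.4 kb upstream of Tdpoz4 (chr3:93756485-93757833) had 3.66 and 4.70 against 29.4 and 29.4, and an MMERVK9E 204 kb from Aasdhppt (chr9:4104525-4105681) had 2.84 and 3.21 against 20.5 and 21.8. They differed by 3.97 ± 0.16 and 3.95 ± 0.17 (adjusted p = 1.8e-08 for both). The next distal rises, in an intron of Gm4425 and 9.45 kb from Gm12312, lay in neither family, and their windows were 79.0% and 64.3% repeat-masked. They had 4.69 and 3.21 against 23.9 and 24.7, and 4.80 and 3.52 against 23.8 and 23.2.

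The other elements with the highest dTAG-13 values among those that gained a strong peak are given by their distance to the nearest active gene start. An MMERVK9C 54.3 kb from Greb1l had 8.02 and 7.57 in DMSO against 33.9 and 30.3 after dTAG-13, and an MMERVK9E 431 kb from Tiam1 had 8.52 and 9.64 against 30.6 and 32.5. An MMERVK9E 218 kb from Gm4540 had 4.44 and 4.15 against 19.1 and 20.3. Among MMETns, that 12.7 kb from Gm13192 had 9.53 and 9.36 against 28.8 and 27.6, and that 47.3 kb from Dmac2 had 6.09 and 5.54 against 21.8 and 20.5. At an MMETn 287 kb from Ly6h, the dTAG-13 libraries disagreed, with 54.6 and 4.56 and no peak in DMSO.

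The Cthrc1 locus showed rises of different size. Cthrc1 encodes a secreted collagen triple-helix repeat protein, and its mRNA was 16.5 ± 1.94 TPM in DMSO and 241 ± 5.38 after 24 h (SD, n = 3). The MMETn site whose sequence is given above lay 7.44 kb upstream of its start (chr15:39067771-39069922). MED23 there was 8.61 and 9.73 in DMSO against 32.7 and 30.2 after dTAG-13, a centred difference of 2.92 ± 0.14 (limma, adjusted p = 2.2e-08). At the start itself, the values were 3.19 and 4.38 against 4.38 and 3.78, and the groups overlapped as deposited. The centred difference there was 1.26 ± 0.23 (adjusted p = 0.0004), but 0.57 by quantile normalisation (adjusted p = 0.067) and 0.12 as deposited (adjusted p = 0.62).

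On the other side of the gene, an MMERVK9C annotated within an exon of Dcaf13 held a site with 9.31 and 7.86 in DMSO against 16.8 and 17.5 after dTAG-13 (chr15:39133204-39134204). It rose by 2.14 ± 0.15 (limma, adjusted p = 3.1e-07). A site 13.6 kb from the Cthrc1 start and outside both families had 24.9 and 23.5 against 9.15 and 8.59, a difference of -0.31 ± 0.14 (adjusted p = 0.061).

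**Figure D4:**
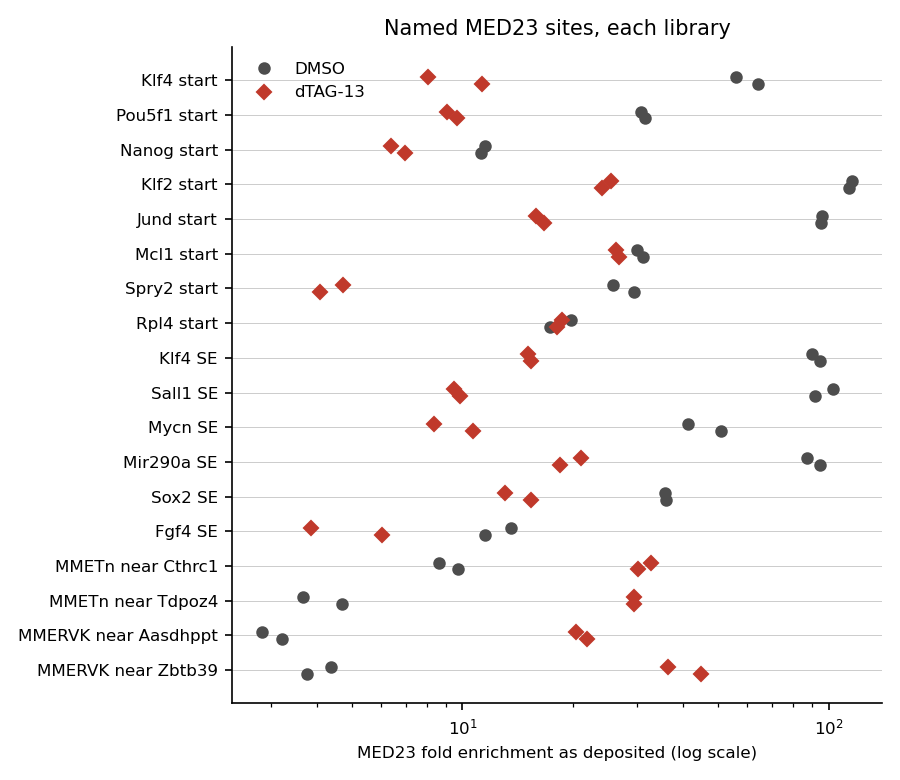
MED23 fold enrichment as deposited (x axis, log scale) at named sites, with 1 point for each of 2 DMSO and 2 dTAG-13 libraries. The dTAG-13 points lie left of the DMSO points at the SEs and at most gene starts shown (Klf4 start 8.03 and 11.3 against 55.7 and 64.1) and right of them at the 4 ERV sites (Zbtb39 36.4 and 44.7 against 4.37 and 3.77).

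All distal sites, SEs and ERVs included, differed in repeat content by direction. Distal sites that rose had a median of 35.0% repeat-masked bases in the 300-base window, those that fell 13.7%, and those with a peak only in both dTAG-13 libraries 76.8%. Of 3411 distal sites that rose, 248 lay in an MMERVK or MMETn and 1272 (37.3%) shared a 30-base word with at least 10 other windows, beside 158 of 1541 (10.3%) that fell. The median distance to the nearest active gene start was 52.4 kb for those that rose and 26.5 kb for those that fell. Across the 7507 distal sites tested, the difference correlated with the masked share (Spearman coefficient 0.297) and inversely with G+C content (-0.333), over sites that share 4 libraries and, in repeats, sequence.

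Motif letters differed by direction as well, counted as exact matches on either strand in the 300-base window. The octamer ATGCAAAT was present at 13.3% of distal sites that rose, 23.4% of the 274 that rose at least 4-fold and 5.84% of those that fell. It stood at 7.20% of distal sites not called, 6.90% of all sites and 1.20% of active gene starts. Since 37.3% of the distal windows that rose share a 30-base word with other windows, the windows are not independent of each other. The ESRRB letters TCAAGGTCA were present at 2.86% of distal sites that fell and 0.85% of those that rose, and the KLF letters CCACACCC at 4.80% and 1.85%. Distal sites not called held them at 1.21% (ESRRB) and 3.80% (KLF). At gene starts the ETS letters CCGGAAG, which ELK1 reads, stood at 14.01% of sites that fell and 13.7% of those that rose, beside 15.5% of all active gene starts. SOX letters CCATTGTT stood at 3.05% of distal sites that fell and 2.37% that rose, CCAAT at 28.4% and 29.3%, the CRE at 0.91% and 0.29% and the NRF1 letters GCATGCGC at 0.91% and 0.29%. At distal sites not called these shares were 2.94%, 29.0%, 0.47% and 0.43%, in the same order. The 13-base word was taken from 3 ERV windows picked among sites that rose, and these windows are counted here. Its direction is therefore a description and not a test. It was present at 172 tested sites, of which 150 rose and 4 fell, beside 36.9% and 28.8% of all tested sites.

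The largest distal falls lay outside both ERV families, though the windows at Scmh1 and Ncoa1 were 87.0% and 80.0% repeat-masked. A site 45.3 kb upstream of Scmh1, a Polycomb gene, had 64.2 and 61.3 in DMSO against 3.80 and 3.35 after dTAG-13 (chr4:120359355-120360719, intergenic, centred difference -3.00 ± 0.14). A site in an intron of Ncoa1, a nuclear receptor coactivator, had 70.1 and 63.6 against 5.46 and 4.22 (chr12:4356826-4360583, -2.66 ± 0.15). Those near Nkain1 (in an SE), Gm3379 and Rybp had 91.4 and 89.9 against 6.97 and 8.46, 33.4 and 32.9 against 2.41 and 3.39, and 98.2 and 90.2 against 8.37 and 9.44. In all 5 the dTAG-13 values lay far below the DMSO values, and limma's adjusted p was at most 5.3e-07. The strongest DMSO site with no dTAG-13 peak lay 88.6 kb from Tnfrsf19, with 46.2 and 36.8, and the strongest dTAG-13 site with no DMSO peak lay 6.81 kb from Gm8399, with 20.5 and 23.5 (65.0% repeat-masked).

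Among the starts of active genes, the largest falls were at Dmrt3, Sgpl1, Ran, Ssr2 and the divergent histone genes Hist1h2an and Hist1h2bp. Dmrt3, a DM-domain transcription factor gene, had 54.8 and 57.9 in DMSO against 4.54 and 3.57 after dTAG-13 (centred difference -2.67 ± 0.15). Ran, the nuclear transport GTPase, had 30.5 and 29.1 against 2.79 and 2.71 (-2.30 ± 0.16), with 81.7% G+C at the site. Sgpl1, Ssr2 and the histone pair had 89.8 and 90.2 against 8.48 and 7.62, 143 and 119 against 12.3 and 12.6, and 82.3 and 78.5 against 7.70 and 7.72. These 5 kept their call in limma with centring by G+C content, with differences between -2.76 and -1.69.

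The largest rises at active gene starts were smaller and at weaker sites. Rac1, a small GTPase gene, had 5.23 and 4.38 in DMSO against 7.74 and 8.54 after dTAG-13, and Hint3 had 8.21 and 9.78 against 15.9 and 18.8, at a site whose window was 83.7% repeat-masked. The other 3, at Zfp984, Zfp989 and Gm21411, belong to a cluster of near-identical zinc-finger genes on chromosome 4, so their values are uncertain. They had 2.54 and 2.06 against 4.95 and 5.199, 2.27 and 1.89 against 3.53 and 5.40, and 3.23 and 2.72 against 5.41 and 4.65.

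Pluripotency genes had few sites at their starts. Of 24 genes on the list, 9 had a site, 8 were tested, 4 fell and none rose, where 49.2% of all gene-start sites tested fell and 15.8% rose. At an unadjusted p under 0.05, limma had 4 lower and 1 higher. Centred by G+C content, 4 fell and 2, Lin28a and Nanog, rose, and as deposited all 8 fell. Klf4 had 55.7 and 64.1 in DMSO against 8.03 and 11.3 after dTAG-13, and fell by 1.51 ± 0.16 (limma, adjusted p = 6.0e-06). Klf2, a related factor, had 116 and 113 against 25.5 and 24.0 and fell by 1.07 ± 0.10 (adjusted p = 2.1e-06). The fall of Pou5f1 is given with its SE, and that of Tbx3 was not called with centring by G+C content. The Nanog start had 11.6 and 11.2 against 6.37 and 6.97, a centred difference of 0.37 ± 0.16 (adjusted p = 0.058). No peak summit lay within 1000 bp of the starts of Fgf4 or Fos in any library, and at Sox2, Mycn, Sall1, Esrrb and Egr1 there was 1 peak in 1 library, of 3.23 to 3.82.

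In RNA-seq Klf4 fell from 44.1 ± 1.25 to 11.6 ± 0.373 TPM (SD, n = 3; limma on log2(TPM + 0.5), adjusted p = 2.4e-12), and Nanog rose from 136 ± 4.84 to 199 ± 8.62 (adjusted p = 3.6e-06). Mycn fell from 208 ± 6.05 to 49.2 ± 2.65 TPM and Sall1 from 63.7 ± 0.870 to 27.02 ± 0.552, at genes whose MED23 lay in SEs. Pou5f1 fell from 1162 ± 20.3 to 537 ± 28.03 TPM, Sox2 from 205 ± 8.59 to 131 ± 13.2 and Esrrb from 108 ± 2.15 to 68.9 ± 3.25. Fgf4 fell from 134 ± 3.74 to 77.5 ± 1.65. Relative to the median site, the SE sites of Sox2, Nanog and Fgf4 had no called MED23 change, and that of Esrrb was not tested. Nascent RNA (TT-SLAM-seq) of Pou5f1, Esrrb and Nanog was not called (-0.12, -0.13 and 0.51; limma, adjusted p = 0.52, 0.43 and 0.13). That of Klf4, Sox2, Fgf4, Mycn and Sall1 fell by 1.02, 0.96, 1.09, 2.14 and 0.58.

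The FGF and ERK feedback genes damp or read ERK signalling. Of 12, 10 had a site, 7 were tested, 5 fell and none rose, beside 49.2% and 15.8% of all gene-start sites tested. Spry2, an ERK pathway inhibitor, had 25.8 and 29.4 in DMSO against 4.73 and 4.08 after dTAG-13, a difference of -1.51 ± 0.16 (limma, adjusted p = 6.7e-06). Spred2, Dusp4, Lef1 and Dusp5 fell by 1.18, 1.06, 0.97 and 0.76. Dusp6 and Etv1 did not pass the test (-0.23 and -0.09), and Etv4, Spry1 and Spry4 had a peak in only 1 dTAG-13 library. At an unadjusted p under 0.05 limma also had 5 lower and 0 higher. Centred by G+C content 4 of the 7 fell, and as deposited all 7. In RNA-seq, 7 of the 10 fell and 1 rose, where 25% of all genes tested fell and 42.9% rose, and in TT-SLAM-seq, which reads nascent RNA, 5 fell and 2 rose (5.59% and 32.3% of all genes).

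The immediate early and serum response genes, among which ELK1 has its known targets, held more sites. Of 20 genes, 13 had a site at the start, 12 were tested, 9 fell and 1 rose, again beside 49.2% and 15.8% of all gene-start sites, and with centring by G+C content 5 fell and 3 rose. Jund, an AP-1 subunit gene, had 95.6 and 95.6 in DMSO against 15.9 and 16.8 after dTAG-13, a difference of -1.41 ± 0.10 (limma, adjusted p = 4.1e-07). Fosb had 43.7 and 48.6 against 9.76 and 8.38 (-1.21 ± 0.13), and Klf10 25.4 and 27.04 against 4.07 and 6.18 (-1.25 ± 0.19). Mcl1, an anti-apoptotic gene, rose, with 29.9 and 31.2 against 26.2 and 26.7, a centred difference of 0.93 ± 0.11. As deposited its groups did not overlap in the downward direction. Nascent RNA of the 9 genes that fell, measured for 8, rose at 7 and fell at 1 in TT-SLAM-seq, where 32.3% of all genes rose and 5.59% fell. The DMSO control of TT-SLAM-seq is labelled as the start of the time course, unlike that of MED23. In RNA-seq, 2 of the 9 rose and 4 fell, with a median log2 difference of -0.14. Jund rose by 1.32 on the log2(FPKM + 0.5) scale (limma, adjusted p = 0.001) and Myc fell by 1.13 (adjusted p = 0.0013), while the median of all genes was 0.21.

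Cytosolic ribosomal protein genes moved both ways. Of 32, 26 had a site, in 25 sites, and of 24 tested 14 fell and 5 rose, which is near the 49.2% and 15.8% of all gene-start sites. Rpl7a, whose site also covers the start of Med22, had 31.1 and 23.6 in DMSO against 4.16 and 3.53 after dTAG-13, a difference of -1.68 ± 0.17 (limma, adjusted p = 6.1e-06). Rpl4 had 19.8 and 17.4 against 18.7 and 18.2, which overlapped as deposited and gave a centred difference of 1.13 ± 0.13 (adjusted p = 1.2e-05). Centred by G+C content, 5 of the 24 fell and 7 rose, and as deposited 21 fell and none rose.

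The lists of other cell states were sparse at MED23 sites. Their counts stand beside the 15.8% of all gene-start sites tested that rose and the 49.2% that fell. Of 14 formative and primed epiblast genes, 4 had a site and the 1 tested, Zic2, fell, with 54.7 and 54.1 in DMSO against 9.19 and 8.66 after dTAG-13. Of 12 endoderm genes, 4 had a site, and both tested sites fell, at Gata6 and between Col4a1 and Col4a2. Of 16 genes of the 2-cell stage, 5 Zscan4 copies had a site and 4 rose relative to the median site. Zscan4d had 5.66 and 5.31 against 5.39 and 4.76, which overlapped as deposited. These copies are near-identical, so reads cannot be placed among them with certainty, and in limma on deposited values none rose and 1 fell. At an unadjusted p under 0.05, 2 fell on deposited values. Centred by G+C content 2 rose.

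Starts of Mediator subunit genes had sites at 15 of 33, of which 8 were tested. Of these, 2 rose (Med19 and Med25) and 2 fell (Med16 and Med22, the latter at a site shared with Rpl7a), beside 15.8% and 49.2% of all gene-start sites tested. A further 4 genes had a peak only in both DMSO libraries (Med1, Med12l, Med29 and Med26). Med25, a tail subunit, had 18.4 and 17.1 in DMSO against 10.5 and 12.9 after dTAG-13, lower as deposited in both. Centred by G+C content 4 subunit sites rose and 1 fell, and as deposited 7 fell. The start of Med23 itself had 5.70 and 4.09 in DMSO, below the selection, and no peak after dTAG-13.

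RNA of active genes was next read by the MED23 call at their start, beside 42.9% of all genes tested that rose and 25% that fell in RNA-seq. Of 387 active genes whose start site rose, 158 rose and 135 fell in RNA-seq. Of 1557 whose start site fell, 575 rose and 532 fell. The median log2 differences were 0.03 and 0.00, below the 0.13 of all genes. Among all 4760 active genes with a site and an RNA-seq value, the median was 0.05, and 1929 rose and 1571 fell. Over 2965 active genes with a tested start site, the MED23 and RNA differences had Pearson's r of 0.02, and over 2540 genes with TT-SLAM-seq values r was 0.01, across genes that share sites and libraries.

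Other ChIP libraries of the same line were laid over the MED23 sites, with equal numbers of strongest peaks per factor (7689 for RNAPII, 10000 for H3K27ac and H3K9me3). RNAPII peaks overlapped 70.9% and 70.4% of gene-start sites that fell in DMSO against 67.0% and 65.9% after dTAG-13. At gene-start sites that rose the shares were 52.3% and 52.3% against 49.4% and 49.0%. Of distal sites that fell, 20.2% and 19.7% held RNAPII in DMSO against 16.9% and 16.5% after dTAG-13, and of those that rose 5.39% and 5.28% against 7.01% and 6.42%. Over all 15657 sites the RNAPII shares were 25.3% and 25.1% in DMSO against 23.0% and 22.5% after dTAG-13, so a lower share was general.

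The histone marks are given for 3 groups of distal sites. H3K9me3 peaks overlapped 39.9%, 56.5% and 49.4% of the 356 sites with a MED23 peak in both dTAG-13 and neither DMSO library in DMSO against 1.40%, 9.83% and 6.74% after dTAG-13. H3K27ac, a mark of active enhancers and promoters, overlapped 0%, 0.84% and 0.56% in DMSO against 24.2%, 29.8% and 50.3% after dTAG-13. At the 274 distal sites that rose at least 4-fold, H3K9me3 overlapped 45.3%, 56.2% and 49.6% in DMSO against 5.47%, 7.66% and 8.76% after dTAG-13. H3K27ac there overlapped 5.11%, 8.39% and 6.57% in DMSO against 53.3%, 49.6% and 77.4%. At distal sites that fell, H3K27ac overlapped 45.0%, 49.1% and 45.2% in DMSO against 36.7%, 34.4% and 34.1% after dTAG-13. In each of these comparisons the groups did not overlap. Over all 15657 sites, H3K9me3 overlapped 4.41%, 6.40% and 5.40% in DMSO against 0.99%, 1.86% and 1.53% after dTAG-13, so its groups were apart there too. H3K27ac overlapped 34.8%, 36.3% and 35.0% of all sites in DMSO against 31.2%, 36.5% and 34.6% after dTAG-13, where the groups overlapped. The numbers of deposited H3K9me3 peaks varied from 11474 to 147611 among the dTAG-13 libraries.

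RNAPII and H3K27ac were also counted at the elements themselves, RNAPII with 7689 peaks per library. RNAPII peaks overlapped 8 and 7 MMERVKs in DMSO against 19 and 17 after dTAG-13, and 38 and 41 MMETns against 37 and 34. At SEs they overlapped 77 and 75 against 59 and 61. H3K27ac overlapped 83, 98 and 100 MMETns in DMSO against 225, 221 and 302 after dTAG-13.

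**Figure D5:**
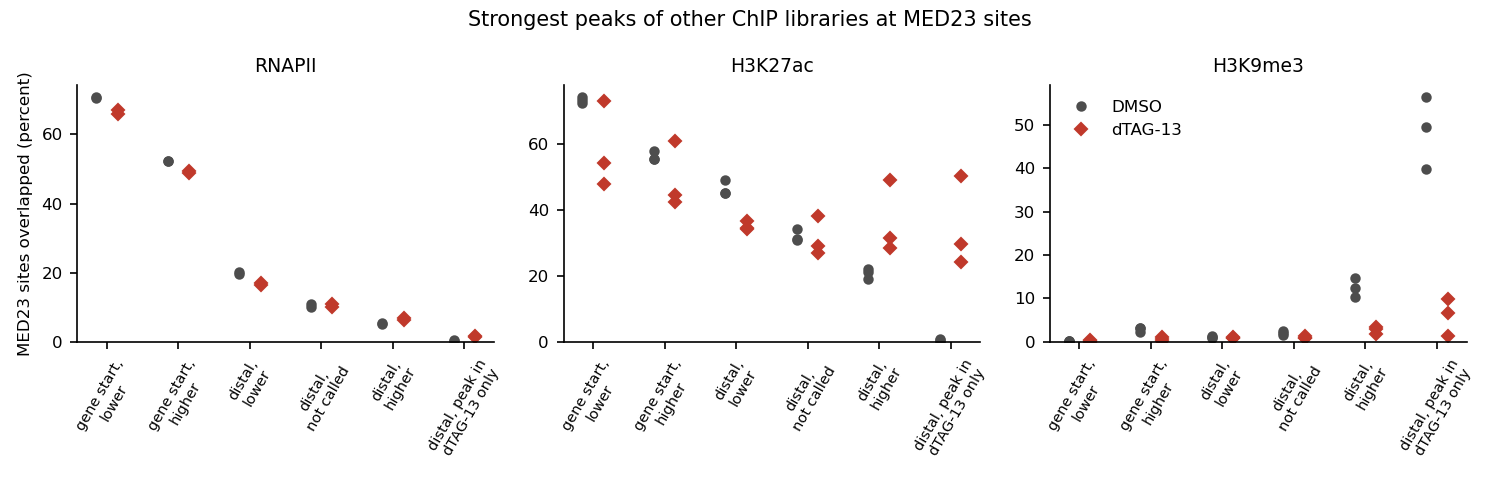
Share of MED23 sites (y axes, percent) overlapped by the strongest RNAPII, H3K27ac and H3K9me3 peaks in each DMSO and dTAG-13 library, by the direction of the MED23 change (x axis). Points are libraries. H3K9me3 falls from between 39.9% and 56.5% to between 1.40% and 9.83% at distal sites with a MED23 peak only after dTAG-13, where H3K27ac rises from at most 0.84% to at least 24.2%.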

How the data were processed

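MED23 peaks were called by the authors with MACS2 in each library separately after alignment with BWA to mm10 (build and tools per the labels), and the deposited narrowPeak files give fold enrichment, which is a ratio over background, and -log10 of p and q. Caller settings are not given in the sources used here. Gene positions, TPM (StringTie 2.0.6, STAR 2.7.5a) and FPKM of TT-SLAM-seq were used as deposited by the authors. Columns of other values were not used. SE and ERV positions came from the study's lists, and IAPs were not analysed here.

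The 10000 strongest peaks per library by fold enrichment were merged (1 bp overlap). Sites with a peak in all 4 libraries were tested with limma 3.58.1 (R 4.3.3, trend) on log2 fold enrichment centred on each library's median, at an adjusted p (Benjamini-Hochberg) of 0.05. RNA was tested with limma on log2(TPM + 0.5) and log2(FPKM + 0.5). The DMSO controls of RNA-seq and TT-SLAM-seq are labelled as the start of a time course and those of MED23 ChIP are listed at 24 h. RNA and MED23 differences therefore do not share a control time. On simulated data for 10552 sites, 95.5% of 2-fold and 22.4% of 1.5-fold changes were recovered. Only 67 sites were changed at each of these folds and 66 at 4-fold, and the choice of peaks was not simulated. Far more sites were called in the data, so these rates need not hold there. Named sites were the fixed genes, called list members, the 5 largest rises and falls per class, the 10 strongest SEs and the 5 strongest gained elements per ERV family. The members and lists were chosen with earlier results of these data known. Windows were read from GRCm38.p6 with pysam 0.24.0. Gene annotation at sites came from GENCODE vM21. Some results on single genes are not reported here.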

Additional observations from a re-analysis of the deposited data

How the results depend on the processing

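Centring set most calls. With values as deposited, 643 sites rose and 7942 fell in limma (gene starts 17 and 2792, SE sites 0 and 270, or 0 and 272 at an unadjusted p under 0.05), the Nanog start fell by 0.773, and with quantile normalisation 321 gene-start sites rose. Centring by G+C content, chosen after the data were seen, gave 803 gene-start sites that rose and 907 that fell. With missing values set to each library's lowest value, 5536 sites and 2702 gene-start sites fell. Among sites above the median of mean fold enrichment 1632 rose and 1911 fell (gene starts 202 and 882), which tests fewer sites. The p column in place of fold enrichment gave 13 SE sites that rose, and 5000 peaks per library gave 290 gene-start sites that rose. Where no cause is named, the cause was not tested.

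For differences between libraries, all deposited peaks turned the gene-start share to 3.62 percentage points and MMERVKs to -0.5, and gave -7785 active starts and 11.5 MMETns. With 5000 and 2500 peaks per library there were -904 and -330.5 active starts and 100 and 48 MMETns, 2500 peaks gave 45 MMERVKs, and peaks of -log10 q at least 5 gave -802 active starts and 100.5 MMETns. Under the other planned settings these differences kept their direction within 1.5-fold.

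Leaving out 1 library moved the gene-start share between -17.21 and -16.2 percentage points, active starts between -1933 and -1803, SEs between -36.5 and -34.5, MMERVKs between 117.5 and 119.5 and MMETns between 154 and 158. Sites that rose numbered 3247 to 3743 and those that fell 2622 to 2864, at gene starts 347 to 462 and 1269 to 1403 and at SEs 20 to 25 and 139 to 152, with the lone library assumed to vary like the others. Same-numbered libraries did not deviate together (r = 0.00085), and a fit with a replicate block gave 3865 sites that rose and 3016 that fell (gene starts 474 and 1493, SE sites 26 and 153).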

Other observations

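Sites at snRNA genes, a class chosen after values were seen, were among the strongest in every library. Of the 50 strongest tested sites, 26 and 25 in DMSO against 22 and 22 after dTAG-13 lay at these genes, which encode the RNAs of the spliceosome. Their 49 tested sites had medians of 136 and 118 in DMSO against 50.6 and 50.1 after dTAG-13. Of these, 11 rose and 25 fell relative to the median site, with a median difference of -0.24, beside 15.8% and 49.2% of all gene-start sites that rose and fell. Sites at replication-dependent histone genes had medians of 42.0 and 39.9 in DMSO against 13.6 and 13.6 after dTAG-13, and 17 of 32 fell, near the same 49.2%. Both classes hold near-identical copies, so the placement of reads among them is uncertain.

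The strongest site after dTAG-13 was among the sites at snRNA genes. It lay on chromosome 1, 265 bp from the start of Alyref2, the nearest active gene, with 104 and 104, beside 142.5 and 101.5 in DMSO. Starts of unprocessed pseudogenes, another class chosen after values were seen, had 17 of 21 tested sites that rose relative to the median site and 1 that fell. Of all gene-start sites tested, 15.8% rose and 49.2% fell. As deposited, the medians of the class were lower after dTAG-13, with 9.02 and 9.62 against 11.5 and 11.9 in DMSO.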
